A study of Oncorhynchus mykiss with 27 samples.

Results

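Smoothelin (*smtn*), dystrophin (*dmd*) and desmin (*des*) are cytoskeletal genes best known from muscle, and filamin-binding LIM protein 1 (*fblim1*) links adhesions to actin. The transcripts of these 4 genes were followed here in explants of rainbow trout testis. The 4 members are 4 cDNA clones among the 9024 clones of a nylon membrane array, found by clone name through the short list of clones that the study annotated. *smtn* is clone tcbk0048.o.16, which that list matched to zebrafish smoothelin b. *dmd* is clone 1rt38l12_d_f06, named by its similarity to mouse dystrophin, and *fblim1* is clone 1rt28e04_c_c02, named by orthology to a stickleback gene. *des* is clone 1rt69n20_d_g10, named by its similarity to a desmin fragment of rainbow trout. The RefSeq annotation of the trout genome (USDA_OmykA_1.1) was searched for the 4 symbols, each with or without a final a or b. It holds *smtna*, *smtnb* and *fblim1*, and none for *dmd* or *des*. A spotted cDNA can bind transcripts of close paralogs, so that each level below may sum more than 1 gene copy.

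Testes came from an all-male trout population at early stages of spermatogenesis, and pieces of all fish were pooled, mixed and spread over wells. The cultured groups had 6 arrays each after 96 h: trout Fsh at 500 ng/mL together with trilostane at 10 µg/mL (Fsh+Tri), trilostane alone at 10 µg/mL (Tri), Fsh alone at 500 ng/mL (Fsh), and no added substance (Ctrl). Trilostane inhibits 3 beta-hydroxysteroid dehydrogenase, the enzyme that makes Δ4-steroids, and was added 1 h before Fsh. A further 3 arrays held tissue before culture (T0). Since the wells were filled from 1 pool, p-values measure the spread between wells and not between fish. The labels give the maturity of the tissue as stage III for 4 of 6 Fsh+Tri, 2 of 6 Tri, 3 of 6 Fsh, 0 of 6 Ctrl and 2 of 3 T0 arrays and as stage I-II for the rest, whereas the study's methods describe wells with explants of several stages.

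Smoothelin is an actin-binding protein of contractile smooth muscle cells. Dystrophin ties cortical actin to a membrane complex that holds the extracellular matrix. Desmin forms the intermediate filaments of muscle cells, and filamin-binding LIM protein 1, also called migfilin, links filamin and integrin adhesions to actin. In the vertebrate testis, peritubular myoid cells, flat contractile cells around the tubules, carry much of the muscle-type cytoskeleton, and in mammals desmin is one of their markers. The study, from earlier work, gave the testicular profile of *smtn* as somatic and that of *dmd* as meiotic. For *fblim1* and *des* it gave none. Fsh acts on somatic cells of the testis and, in fish, also stimulates the production of steroids.

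*smtn*, *dmd* and *fblim1* were higher in explants given Fsh alone than in untreated ones, by 1.72- to 1.92-fold. With trilostane present, Fsh made no difference to them that passed the test. The change in their response was also tested directly, and none of them passed (limma adjusted p of 0.32, 0.0655 and 0.507, in that order). *des* was lower with Fsh both without trilostane (1.62-fold) and with it (1.64-fold). During culture without Fsh the transcripts also parted: *smtn* was 2.66-fold lower in Ctrl than in tissue before culture, *des* was 1.93-fold and *fblim1* 2.18-fold higher, and *dmd* did not pass the test. All levels are the authors' normalized log2 values, and all differences are on that scale. The plot of levels by array shows every value.

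**Figure D1:**
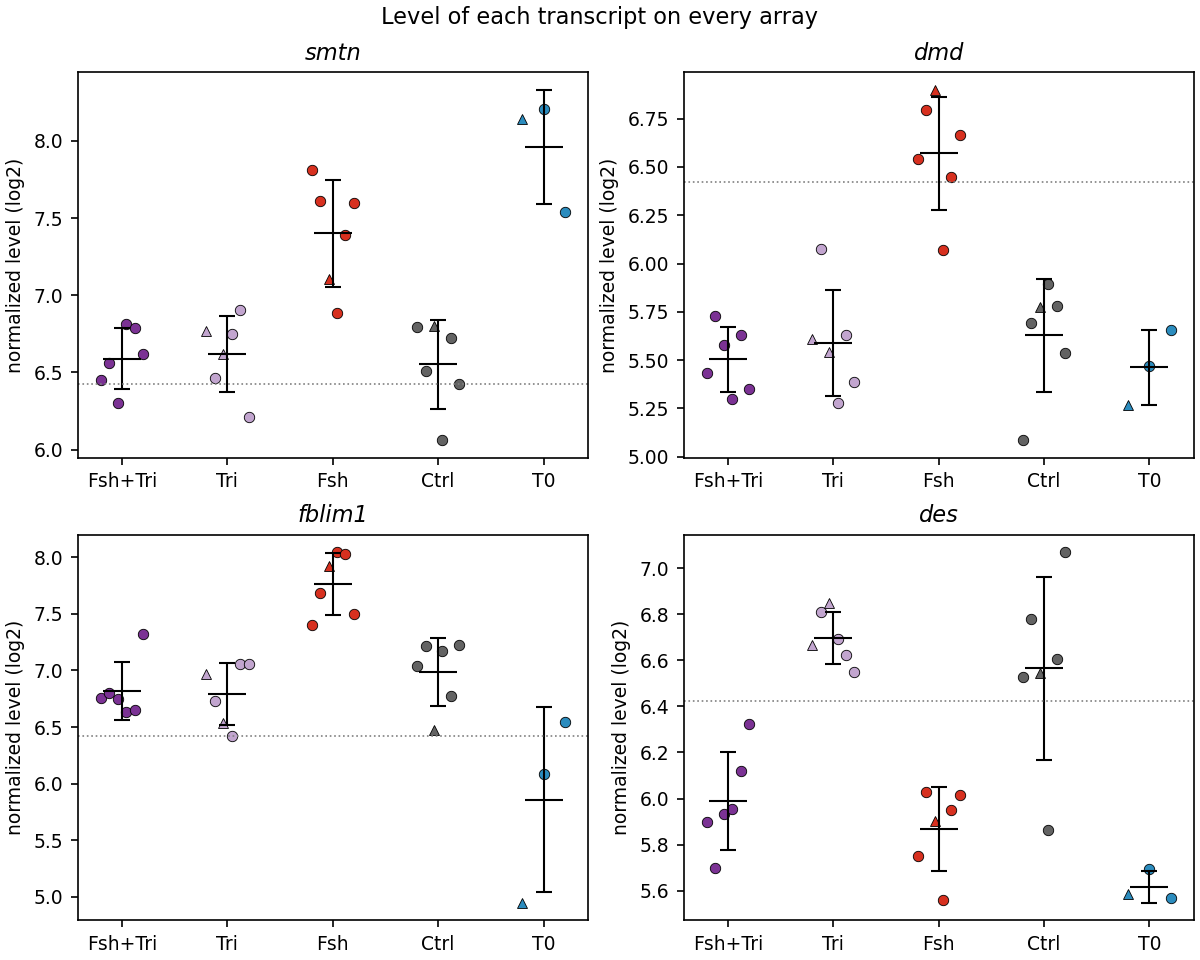
Normalized level (log2) of *smtn*, *dmd*, *fblim1* and *des* on each array of Fsh+Tri, Tri, Fsh, Ctrl (6 arrays each) and T0 (3 arrays). Triangles mark the 5 arrays whose files were written in a newer layout, bars give the mean ± SD, and the dotted line is the median of the experiment (6.42). The Fsh arrays of *smtn*, *dmd* and *fblim1* lay above all Ctrl arrays, and the Fsh+Tri arrays of *des* below all Tri arrays.

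*smtn* spanned 6.89 to 7.81 on the Fsh arrays (median 7.50), against 6.06 to 6.80 on the Ctrl arrays (median 6.62). No Fsh array reached down to a Ctrl array. The difference was 0.85 on the log2 scale (SE 0.16, 95% confidence interval 0.52 to 1.18, adjusted p = 0.00227, limma with Benjamini-Hochberg adjustment over 4540 clones). *dmd* spanned 6.07 to 6.90 with Fsh (median 6.60), against 5.08 to 5.89 in Ctrl (median 5.73). Here too the lowest Fsh array lay above the highest Ctrl array, and the difference was 0.94 (SE 0.16, 95% interval 0.63 to 1.26, adjusted p = 0.000364). *fblim1* spanned 7.40 to 8.05 with Fsh (median 7.80), against 6.47 to 7.22 in Ctrl (median 7.11), again without overlap. Its difference was 0.78 (SE 0.16, 95% interval 0.45 to 1.11, adjusted p = 0.00474).

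*des*, the intermediate filament gene, moved the other way. It spanned 5.56 to 6.03 with Fsh (median 5.92), against 5.87 to 7.07 in Ctrl (median 6.58). The overlap came from Ctrl replicate 4 at 5.87, and the other 5 Ctrl arrays (6.53 to 7.07) were all above every Fsh array. The difference was -0.70 (SE 0.15, 95% interval -1.005 to -0.39, adjusted p = 0.00748), and -0.84 without Ctrl replicate 4 (adjusted p = 0.000201). That array also stood apart from the other cultured arrays on the first principal component of all tested clones, at -31.3 where the others lay between -10.6 and 10.5. Without it the differences of *smtn*, *dmd* and *fblim1* were 0.75, 1.00 and 0.82.

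All 4 members thus passed the test for Fsh against Ctrl, 3 higher and 1 lower, where 2.2% of the 4540 tested clones did (100 clones, with 1.81% higher and 0.396% lower). The median difference of all tested clones was -0.04. This count is no independent evidence, since the study chose the annotated clones by a fold change and a test of the same Fsh comparisons on the same arrays. Also, a clone was tested only where at least 1 group mean reached the median of the experiment, 6.42. *dmd* passed through the Fsh group alone, so that it had to differ, and *des* through Tri and Ctrl. *smtn* and *fblim1* reached the median in all 4 cultured groups. With no filter on level, the adjusted p of *dmd* was 0.000729. When only arrays labelled stage I-II were kept (3 Fsh, 6 Ctrl), *smtn* (0.82, adjusted p = 0.0564) and *des* (-0.61, adjusted p = 0.204) missed the threshold, and *des* also did in a fit of the Fsh and Ctrl arrays alone (adjusted p = 0.0782). Non-overlapping groups with Fsh higher were found for 1.06% of tested clones.

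Trilostane alone left the levels of the 4 members near those of Ctrl. For Tri minus Ctrl, *smtn* differed by 0.07 (95% interval -0.26 to 0.39), *dmd* by -0.04 (-0.36 to 0.28), *fblim1* by -0.19 (-0.52 to 0.14) and *des* by 0.13 (-0.17 to 0.44). None of the 4 passed limma's test, adjusted or at an unadjusted p under 0.05, where 0.573% of tested clones passed after adjustment and 9.36% before it. These intervals still allow changes in either direction, of up to 0.52 in size.

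In the presence of trilostane, the comparison of Fsh+Tri with Tri asks what Fsh does once Δ4-steroid synthesis is inhibited. By the study's own steroid measurements, the inhibition of the response to Fsh was strong but not complete. *smtn* spanned 6.30 to 6.81 in Fsh+Tri (median 6.59), against 6.21 to 6.90 in Tri (median 6.68). *dmd* spanned 5.30 to 5.73 in Fsh+Tri (median 5.51), against 5.28 to 6.07 in Tri (median 5.58). *fblim1* spanned 6.63 to 7.32 in Fsh+Tri (median 6.75), against 6.42 to 7.06 in Tri (median 6.85). The groups overlapped widely for each of these 3 genes, and the differences were -0.03 for *smtn* (95% interval -0.36 to 0.30), -0.08 for *dmd* (-0.40 to 0.23) and 0.02 for *fblim1* (-0.31 to 0.35).

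*des* spanned 5.70 to 6.33 in Fsh+Tri (median 5.94), against 6.55 to 6.85 in Tri (median 6.68). Every Fsh+Tri array was lower than every Tri array, as for 0.551% of the tested clones. The difference was -0.71 (SE 0.15, 95% interval -1.02 to -0.40, adjusted p = 0.0247, limma). Only 16 clones passed this test (0.352% of 4540), and *des* was the only one of them that was lower (0.022%). This is no independent evidence, since the study chose its clones on this comparison too, on the same arrays. *des* also passed the level filter only through Tri and Ctrl, where it was high. With no filter on level its adjusted p was 0.042. The call is close to its threshold. It was lost in 11 of 37 alternatives. The adjusted p was 0.0553 with the labelled stage as a covariate and 0.0621 with the file layout as a covariate. Without the 5 arrays of the newer layout it was 0.18 (-0.68). Among stage I-II arrays alone the call was lost too (-0.69). With 1 array left out the adjusted p was up to 0.0784, above 0.05 for 7 of the 24 arrays (Tri replicates 1 to 4 and Fsh+Tri replicates 1 to 3). The difference itself stayed between -0.78 and -0.65 in all alternatives, and the exact permutation test of *des* alone gave p = 0.002165, the smallest that 6 arrays against 6 allow (2-sided). The permutation test, too, used the arrays on which the clone was chosen.

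**Figure D2:**
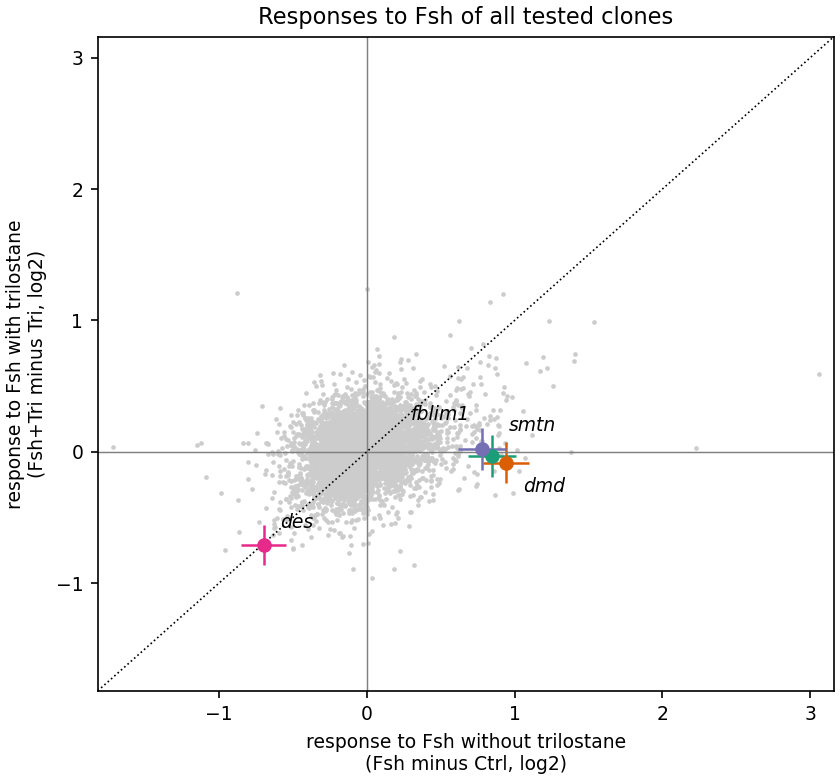
Response to Fsh with trilostane (Fsh+Tri minus Tri, log2) against the response without it (Fsh minus Ctrl, log2) for the 4540 tested clones in grey and the 4 members in colour, with bars of 1 SE and a dotted line of equal responses. *smtn*, *dmd* and *fblim1* lie at 0.78 to 0.94 on the horizontal axis and near 0 on the vertical one, while *des* lies on the line of equal responses at -0.70 and -0.71.

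Adding trilostane to Fsh lowered the 3 genes that Fsh raised. Fsh+Tri minus Fsh was -0.81 for *smtn* (SE 0.16, adjusted p = 0.00246), -1.07 for *dmd* (SE 0.16, adjusted p = 4.04e-05) and -0.95 for *fblim1* (SE 0.16, adjusted p = 0.00034). The groups did not overlap for any of these genes, for instance at most 5.73 in Fsh+Tri against at least 6.07 in Fsh for *dmd*. For *dmd*, which passed the level filter through Fsh alone, the filter set the sign in advance. With no filter on level its adjusted p was 8.28e-05. In all, 1.45% of tested clones passed this test, 0.463% as lower, and 0.727% had no overlap with Fsh+Tri lower. For all 3 genes these calls are no independent evidence. The study chose its clones on comparisons that used the same Fsh and Fsh+Tri arrays. A choice for high values on the Fsh arrays favours a negative sign here. *des* differed by 0.12 (95% interval -0.19 to 0.43, adjusted p = 0.854). Among stage I-II arrays alone (2 Fsh+Tri, 3 Fsh), *smtn* had -0.57 (adjusted p = 0.775) and *dmd* -1.25 (adjusted p = 0.0512).

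The change in the response to Fsh when trilostane was added was also tested as a difference of its own. It was -1.03 for *dmd* (SE 0.22, adjusted p = 0.0655), -0.88 for *smtn* (SE 0.23, adjusted p = 0.32), -0.76 for *fblim1* (SE 0.23, adjusted p = 0.507) and -0.01 for *des* (SE 0.21, 95% interval -0.45 to 0.42, adjusted p = 0.991). None of the 4 passed after adjustment over all clones, where 3 clones did (0.0661% of 4540), although *smtn*, *dmd* and *fblim1* were below an unadjusted limma p of 0.05, as 7.89% of tested clones were. By size of p, *dmd* ranked 4, *smtn* 7 and *fblim1* 20 of 4540. These ranks and p-values are no independent evidence. The difference of the responses contains Fsh minus Ctrl, on which the study chose these clones on the same arrays. The value of *dmd* stayed above the threshold in 30 of 35 alternatives. Its adjusted p was 0.127 with no filter on level, 0.154 with the file layout as a covariate and 0.405 without the newer arrays. It passed with array weights (-1.05, adjusted p = 0.0123) and with the replicate number as a block (-1.03, adjusted p = 0.0497). It also passed without Fsh replicate 4 (-1.13, adjusted p = 0.015), Ctrl replicate 4 (-1.08, adjusted p = 0.0356) or Tri replicate 4 (-1.09, adjusted p = 0.041).

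Against untreated explants, the combined treatment left *smtn* (0.04, 95% interval -0.29 to 0.36), *dmd* (-0.12, -0.44 to 0.19) and *fblim1* (-0.17, -0.50 to 0.16) without a change that passed the test. *des* was lower by 0.58 on the log2 scale in Fsh+Tri than in Ctrl (difference -0.58, SE 0.15, adjusted p = 0.0342), where 1.96% of tested clones passed. Its groups overlapped, again through Ctrl replicate 4. *des* passed the level filter through Ctrl and Tri alone, and with no filter on level the adjusted p was 0.0611. The call was lost with the stage as a covariate (-0.50, adjusted p = 0.173) and when any of 7 arrays was left out (Ctrl replicates 2, 5 and 6 and Fsh+Tri replicates 1 to 4, adjusted p up to 0.106).

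**Figure D3:**
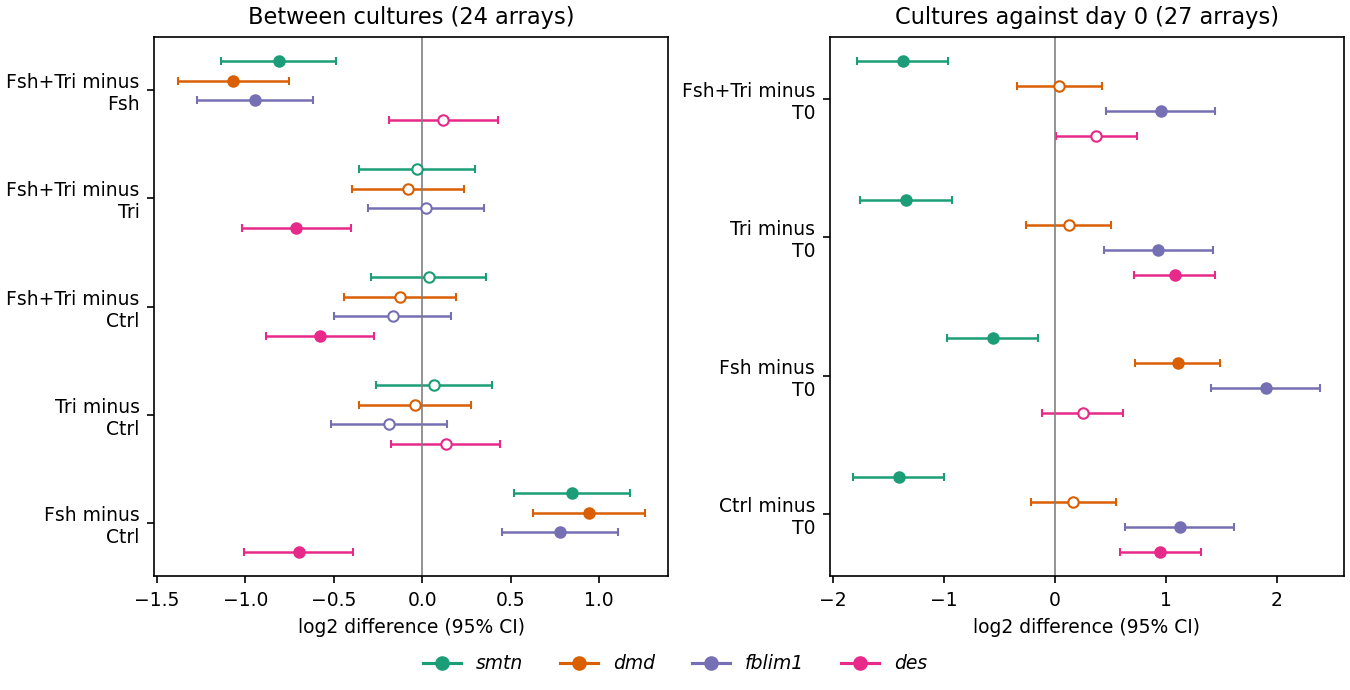
Log2 differences of *smtn*, *dmd*, *fblim1* and *des* with 95% confidence intervals, between cultures (left, fit over 24 arrays) and between each culture and T0 (right, fit over 27 arrays). Filled points had an adjusted p under 0.05. *smtn* was lower than at T0 in all 4 cultures and *fblim1* higher in all 4, while *dmd* differed from T0 with Fsh alone.

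The comparison with T0 shows how the levels changed over 96 h of culture, and the study did not choose its clones on it. The cultured arrays in it are, however, those on which the clones were chosen. *smtn* had 8.14, 8.21 and 7.54 on the T0 arrays, above all Ctrl arrays (6.06 to 6.80). Ctrl minus T0 was -1.41 (SE 0.20, 95% interval -1.82 to -0.999, adjusted p = 3.51e-06, limma over 27 arrays). A difference of either sign passed for 21.8% of the 4859 clones compared, so that a call here is common, and 7.92% had no overlap with Ctrl lower. Tri (-1.34, adjusted p = 6.45e-06, with 23.8% of clones called) and Fsh+Tri (-1.37, adjusted p = 3.79e-06, with 25.7% called) were lower than T0 to a similar extent, and these comparisons share the T0 arrays.

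With Fsh alone, *smtn* was 0.56 lower than at T0 on the log2 scale (difference -0.56, SE 0.20, adjusted p = 0.039), a test that 25.3% of clones passed. The groups overlapped, since T0 replicate 3 (7.54) lay below 3 of 6 Fsh arrays. This call was lost in 14 of 40 alternatives. Without T0 replicate 2 the difference was -0.44 (adjusted p = 0.175), without T0 replicate 1 it was -0.47 (adjusted p = 0.169), and from raw intensity, without the correction for spotted cDNA, -0.17 (adjusted p = 0.456). Without Fsh replicate 3, 4 or 5 it was -0.50, -0.46 and -0.56 (adjusted p = 0.0757, 0.0911 and 0.0549). In decreasing order the means of *smtn* were thus at T0, in Fsh, and in Tri, Fsh+Tri and Ctrl, of which the last 3 did not differ beyond their spread.

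*des* had 5.58, 5.69 and 5.57 at T0, below every Ctrl array. Ctrl minus T0 was 0.95 (SE 0.18, 95% interval 0.58 to 1.32, adjusted p = 0.000203), and 9.26% of clones had no overlap with Ctrl higher. *des* passed the level filter through Ctrl and Tri alone, so that the filter favoured higher levels there than at T0. With no filter on level the adjusted p was 0.000351 in Ctrl and 4.95e-05 in Tri. In Tri the difference from T0 was 1.08 (adjusted p = 2.83e-05). In the cultures with Fsh it was smaller and did not pass, at 0.25 in Fsh (95% interval -0.11 to 0.62, adjusted p = 0.321) and 0.37 in Fsh+Tri (0.01 to 0.74, adjusted p = 0.129), although all Fsh+Tri arrays lay above all T0 arrays, as for 14.8% of clones. The level of *des* in decreasing order was that of Tri, Ctrl, Fsh+Tri, Fsh and T0, and along this order only Ctrl and Fsh+Tri differed as neighbours beyond their spread.

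*fblim1* had 4.95, 6.09 and 6.54 at T0, an uneven set of values. Its SD was 0.82 at T0, against 0.26 (Fsh+Tri) to 0.30 (Ctrl) in the cultures. The SE, interval and adjusted p-values of *fblim1* against T0 use a spread pooled over all groups. The wider spread at T0 is thus not fully in them, and they overstate the precision of these differences. Fsh minus T0 was 1.90 (SE 0.24, 95% interval 1.41 to 2.40, adjusted p = 3.12e-07), with no overlap between the groups, as for 12.9% of clones. The other cultures were also higher than T0, by 0.96 in Fsh+Tri (adjusted p = 0.00325), 0.93 in Tri (adjusted p = 0.00426) and 1.12 in Ctrl (adjusted p = 0.000864). The sizes rest on T0 replicate 1, the array at 4.95. Without it, the differences from T0 were 0.50 in Fsh+Tri (adjusted p = 0.132), 0.48 in Tri (adjusted p = 0.156), 1.45 in Fsh (adjusted p = 1.82e-05) and 0.67 in Ctrl (adjusted p = 0.0408), so that only the last 2 remained past the threshold. From raw intensity the difference was 0.47 in Fsh+Tri (adjusted p = 0.0638). Mean levels decreased in the order Fsh, Ctrl, Fsh+Tri, Tri and T0, with no difference past the threshold between Ctrl and Fsh+Tri or between Fsh+Tri and Tri.

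*dmd* was the member whose level at T0 and in culture without Fsh alone did not differ by the test. It had 5.27, 5.47 and 5.65 at T0. Fsh minus T0 was 1.11 (SE 0.19, 95% interval 0.72 to 1.49, adjusted p = 3.85e-05), and every Fsh array lay above every T0 array, as for 12.9% of clones. Since *dmd* passed the level filter through Fsh alone, the sign of this difference was set by the filter. With no filter on level the adjusted p was 6.69e-05. The others were close to T0, at 0.04 in Fsh+Tri (95% interval -0.34 to 0.42), 0.12 in Tri (-0.26 to 0.51) and 0.16 in Ctrl (-0.22 to 0.55). Its mean was highest in Fsh, and the 4 lower groups, in decreasing order Ctrl, Tri, Fsh+Tri and T0, did not differ as neighbours beyond their spread. Among stage I-II arrays alone there was a single T0 array, so that only sizes are given. The 11 differences from T0 called in all arrays kept their sign there. Their sizes ran from 0.096 (*fblim1* in Fsh+Tri) to 1.33 (*fblim1* in Fsh).

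These are levels in whole tissue, in which fewer cells of a type and less RNA per cell cannot be told apart. Of 6 markers of peritubular and smooth muscle cells, only *des* and *smtn* themselves were among the annotated clones, and of 11 skeletal muscle and 3 blood markers none was. Genes of testicular somatic cells were well above the median of the experiment, such as *amh*, the Sertoli cell gene of anti-Müllerian hormone, which averaged 8.12 in Ctrl and 11.6 at T0, and *hsd3b1*, the steroidogenic enzyme that trilostane inhibits, at 6.96 in Ctrl and 8.92 at T0. Markers of other cells moved with culture. Of 8 Sertoli cell markers 4 were annotated and tested (*amh*, *dmrt1*, *inha*, *cldn11*), of which 3 were lower in Ctrl than at T0 and *cldn11* was higher. Their mean level by array was 8.80 to 8.92 in Fsh+Tri, 8.23 to 8.72 in Tri, 9.09 to 9.32 in Fsh, 7.49 to 8.93 in Ctrl and 9.89 to 9.98 at T0. It thus also moved with Fsh, where 3 of the 4 passed as higher against Ctrl (*inha*, *dmrt1* and *cldn11*), beside 1.81% of all tested clones. The annotated clones are those that the study chose for a response to Fsh on these arrays. This count is therefore no independent evidence on Sertoli cells. *cenpa*, a gene of dividing cells taken as the germ cell marker, averaged 7.95 in Ctrl and 7.97 at T0. The part of these shifts in the results for the 4 members was not tested.

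The arrays came in 2 file layouts, which the headers date to different versions of the image software, with 5 arrays in the newer one (Ctrl replicate 3, Fsh replicate 3, Tri replicates 1 and 3, T0 replicate 1). Among the older arrays alone (5 Fsh and 5 Ctrl), Fsh minus Ctrl was 0.96 for *smtn*, 0.91 for *dmd*, 0.65 for *fblim1* and -0.71 for *des*, all past the threshold. Between the single Fsh and Ctrl arrays of the newer layout the differences had the same signs, at 0.30, 1.12, 1.44 and -0.64. No Fsh+Tri array was in the newer layout. Stage III minus stage I-II within treatment was between -0.12 and 0.11 for the 4 members, and none passed limma's test, before or after adjustment. Of 4540 clones, 416 (9.16%) had an unadjusted limma p under 0.05, and 0% passed after adjustment. This term averages over treatments, which did not all share a sign. In Fsh+Tri, Tri and Fsh the difference of means was -0.32, 0.325 and 0.06 for *smtn* and 0.27, 0.33 and -0.23 for *fblim1*. It was 0.06, 0.05 and -0.29 for *dmd* and -0.07, -0.08 and -0.18 for *des*. These single differences, from 2 to 4 arrays a stage, were not tested.

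**Figure D4:**
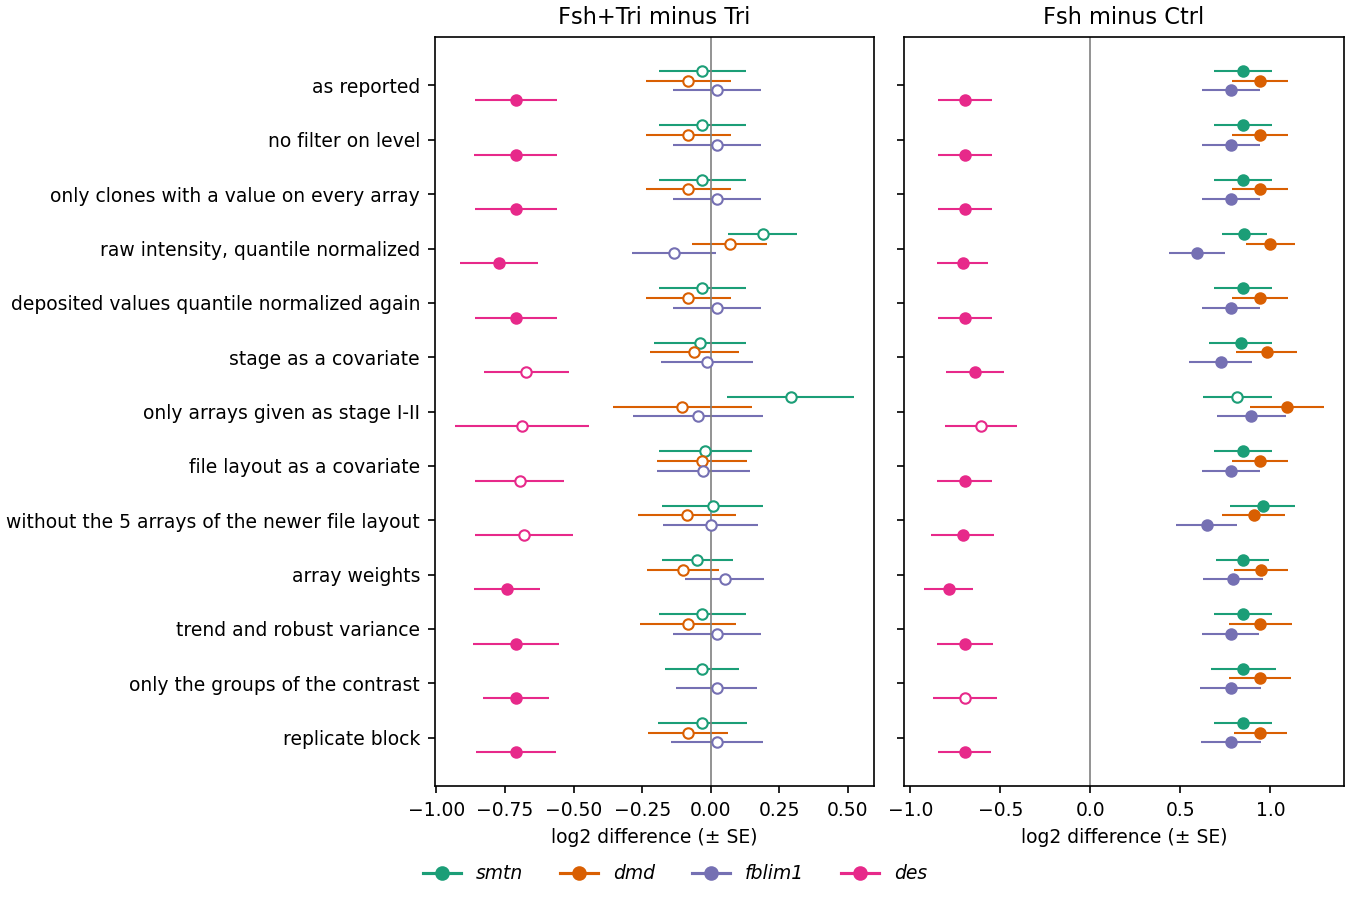
Response to Fsh with trilostane (left, Fsh+Tri minus Tri) and without it (right, Fsh minus Ctrl) as log2 differences ± SE, as reported and under each alternative way of processing, with filled points where the adjusted p was under 0.05. *des* was negative under each alternative shown in both panels. *smtn*, *dmd* and *fblim1* were positive under each in the right panel, while in the left panel they lay on both sides of 0, at -0.05 to 0.29 for *smtn*, -0.10 to 0.069 for *dmd* and -0.13 to 0.05 for *fblim1*. *dmd* has no point for the groups of the contrast alone on the left, since it then missed the level filter.

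Within treatments the 4 members did not vary as a unit. Over the 24 cultured arrays, *dmd* correlated with *smtn* at Pearson's r = 0.70 and with *fblim1* at 0.68, values that include the shared response to Fsh. Once each treatment mean was removed these were -0.03 and -0.18, and that of *smtn* with *fblim1* was -0.50. *des* and *smtn*, the pair of smooth muscle markers, had r = -0.34 over all arrays and 0.37 within treatments. These are descriptions over 24 arrays that share a pool of tissue and a normalization.

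The annotated clones most like each member over the 24 arrays were also named. For *smtn* they were *cebpd2* (r = 0.82), a transcription factor of the C/EBP family, *it* (0.79), the neurohypophysial hormone isotocin, and *wisp1* (0.78), a secreted matrix-associated protein. For *dmd* they were *vt1* (0.84), vasotocin, *ndpkz3* (0.79), a nucleoside diphosphate kinase, and *slc26a4* (0.79), an anion transporter. For *fblim1* they were *ndpkz3* (0.83), the matrix metalloproteinase *mmp19* (0.80) and *vt1* (0.79). For *des* they were *onmydab* (0.84), an MHC class II beta chain, *ccne1* (0.78), cyclin E1, and *krt18* (0.76), a keratin that, like desmin, forms intermediate filaments. Only clones that the study chose for a response to Fsh on these arrays have a name, which favours close matches among them. Among all 4540 tested clones no clone without a name was closer to *smtn* or *dmd* than those listed, 1 was closer to *fblim1* than *ndpkz3* and 2 were closer to *des* than *ccne1*. Once treatment means were removed, r with the same clones was 0.46 (*cebpd2*), 0.51 (*it*) and 0.67 (*wisp1*) for *smtn*, and 0.12 (*vt1*), 0.21 (*ndpkz3*) and -0.04 (*slc26a4*) for *dmd*. It was 0.41 (*ndpkz3*), 0.445 (*mmp19*) and -0.16 (*vt1*) for *fblim1*, and 0.67 (*onmydab*), 0.585 (*ccne1*) and 0.61 (*krt18*) for *des*.

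Of the partners of these proteins, few had an annotated clone. Lists of 31 contractile genes, 14 genes of the dystrophin complex and 21 of filamin and integrin adhesion each held 1 annotated clone, that of the member itself. Among 11 intermediate filament genes, 4 clones were tested: *des*, *krt18* and 2 clones of the keratin *krt12*. *krt18* was lower in Fsh than in Ctrl, as *des* was (-0.87, SE 0.23, adjusted p = 0.0332), with -0.37 in Fsh+Tri against Tri (adjusted p = 0.545). The *krt12* clones were higher in Fsh+Tri than in Tri (0.89 and 1.14, adjusted p = 0.0182 and 0.00076), and against Ctrl in Fsh they had 0.56 (adjusted p = 0.103) and 0.84 (adjusted p = 0.00744). These 4 clones thus did not share a direction, and their median was -0.07 for Fsh minus Ctrl, beside -0.04 for all tested clones. All 4 were chosen by the study for a response to Fsh on these arrays. They do not stand for the other intermediate filament genes.

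A further list of 6 cytoskeleton and junction genes of the annotated set (7 clones) had 5 clones higher and 1 lower, *krt18*, with Fsh alone. Among all tested clones 1.81% were higher and 0.396% lower. The median of the 7 clones was 0.77. *sptbn1*, a spectrin of the membrane skeleton, was higher by 0.88 (adjusted p = 0.00227) and *ezr*, ezrin, which ties actin to the membrane, by 0.79 (adjusted p = 0.018). With trilostane the median of the 7 clones was 0.59 for Fsh+Tri minus Tri, and 3 passed, beside 0.352% of all tested clones. These were *ezr* at 0.82 (adjusted p = 0.0409) and both *krt12* clones, while *sptbn1* had 0.59 (adjusted p = 0.126). The values of *smtn*, *dmd* and *fblim1* for the same comparison lay between -0.08 and 0.02. A lower level with trilostane added to Fsh was not particular to them. Fsh+Tri minus Fsh was -0.69 for *cldn11* (limma adjusted p = 0.0232), the 1 clone of the 7 that passed, and -0.58 for *sptbn1* (adjusted p = 0.0877). Its median over the 7 clones was -0.265. In the test of the difference of the responses, none of the 7 clones and none of the members passed. These clones, too, were chosen by the study on these arrays.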

How the data were processed

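Trout testis RNA was labelled with 33P and hybridized to nylon membranes of 9216 spots. The authors deposited the spot intensity of each array, and the authors' deposited log2 values are this intensity divided by a vector signal, multiplied by its median over arrays, brought to log2 and quantile normalized. Since quantile normalization gives every array the same distribution (median 6.42), all differences are relative to the other clones. The deposited log2 values were used as they were. Spot numbers of the annotated list were checked against the intensities: over 102 clones the correlation of mean levels was 0.998. After removal of 192 control rows, clones measured on 80% or more of the cultured arrays and with a group mean at or above the median were tested, 4540 over the 24 cultured arrays and 4861 over all 27, of which 4859 had values at T0. Treatment means were fitted with lmFit and eBayes of limma 3.58.1 (R 4.3.3; 1 shared spread) and adjusted by Benjamini-Hochberg over all tested clones at 0.05. The fit was tested on simulated data. Confidence intervals are unadjusted. Precision is limited by the number of arrays. Plots were made in matplotlib 3.10.9 under Python 3.11.15.

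The members, the lists and the comparisons were chosen with earlier results of these data known. The genes named are the members, the 3 annotated clones most correlated with each, at most 4 members of each list and markers of the tissue. For the T0 comparisons the groups' spread was pooled over all 27 arrays. Alternatives were the filters, raw intensities, a second quantile normalization, stage, file layout, array weights, variance settings, the groups of a contrast alone, exact permutation tests, each array left out, and the replicate number as a block. Leaving out the arrays of the newer layout was added after the data were seen. Replicate numbers did not pair the arrays. No genome coordinates were used.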

Additional observations from a re-analysis of the deposited data

Results flagged for a closer look

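*fblim1* on Fsh+Tri replicate 6, at 7.32, stood apart from the other 5 Fsh+Tri arrays, the next of which was 6.80, by 0.76 of the range of the group. It lay above the highest Ctrl array (7.22) and below the lowest Fsh array (7.40). It was the only value that stood apart in this way among the 16 sets of 6 arrays (4 genes in 4 cultured groups), and chance marks about 1 set in 20.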

How the results depend on the processing

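Over 44 values, 1503 results of alternatives kept their direction and their side of the threshold, 56 fell below it, 7 passed it and 53 changed sign. Every value that changed sign was below the threshold as reported and at most 0.165 in size. The cause of each change was not tested, except that restricted fits hold fewer arrays. The p-values in this paragraph are adjusted, those of the permutation test excepted. Among stage I-II arrays alone, Fsh minus Ctrl was 0.82 for *smtn* (adjusted p = 0.0564) and -0.61 for *des* (adjusted p = 0.204), and Fsh+Tri minus Fsh was -0.57 for *smtn* (adjusted p = 0.775) and -1.25 for *dmd* (adjusted p = 0.0512). Likewise *des* had -0.69 for Fsh+Tri minus Tri (adjusted p = 1) and -0.53 for Fsh+Tri minus Ctrl (adjusted p = 0.774). Against the single T0 array of that stage, *smtn* had -0.985 in Ctrl, -0.17 in Fsh, -1.03 in Tri and -0.74 in Fsh+Tri. *dmd* had 1.06 in Fsh, and *des* had 1.00 in Ctrl and 1.16 in Tri. *fblim1* had 0.44 in Ctrl, 1.33 in Fsh, 0.14 in Tri and 0.10 in Fsh+Tri. Signs turned there for Fsh+Tri minus Tri of *smtn* (0.29) and *fblim1* (-0.046), Tri minus Ctrl of *smtn* (-0.042), and *dmd* against T0 in Ctrl (-0.027), Tri (-0.085) and Fsh+Tri (-0.19).

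From raw intensity, *smtn* had -0.17 for Fsh minus T0 and *fblim1* 0.47 for Fsh+Tri minus T0, and signs turned for Fsh+Tri minus Tri of *smtn* (0.19), *dmd* (0.069) and *fblim1* (-0.13) and Tri minus Ctrl of *smtn* (-0.076). Without the 5 newer arrays, *smtn* had -0.41 for Fsh minus T0 (adjusted p = 0.279), *des* -0.68 for Fsh+Tri minus Tri (adjusted p = 0.18) and -0.58 for Fsh+Tri minus Ctrl (adjusted p = 0.076), and *fblim1* 0.50 in both Tri and Fsh+Tri against T0 (adjusted p = 0.158 and 0.123). Signs turned for Fsh+Tri minus Tri of *smtn* (0.007) and *fblim1* (-0.00036), Fsh+Tri minus T0 of *dmd* (-0.057) and the difference of the responses of *des* (0.027). With the layout as a covariate, *smtn* had -0.55 for Fsh minus T0 (adjusted p = 0.0507) and *des* -0.70 for Fsh+Tri minus Tri (adjusted p = 0.0621), and signs turned for the difference of the responses of *des* (0.0013) and Fsh+Tri minus Tri of *fblim1* (-0.027).

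With array weights, *smtn* had -0.25 for Fsh minus T0 (adjusted p = 0.27), *fblim1* 0.43 in Tri and 0.48 in Fsh+Tri against T0 (adjusted p = 0.0987 and 0.0555), while *des* in Fsh+Tri against T0 (0.385, adjusted p = 0.0319) and the difference of the responses of *dmd* (-1.05, adjusted p = 0.0123) passed. Signs turned for Fsh+Tri minus Ctrl of *smtn* (-0.019), Fsh+Tri minus T0 of *dmd* (-0.066) and the difference of the responses of *des* (0.045). With no filter on level, *smtn* lost Fsh minus T0 (-0.56, adjusted p = 0.0592) and *des* Fsh+Tri minus Ctrl (-0.58, adjusted p = 0.0611). In fits of the groups of a contrast alone, *smtn* lost Fsh minus T0 (-0.56, adjusted p = 0.0982) and *des* lost Fsh minus Ctrl (-0.70, adjusted p = 0.0782) and Fsh+Tri minus Ctrl (-0.58, adjusted p = 0.127). The exact permutation test gave p = 0.09524 for *smtn* (-0.56) in Fsh against T0 and p = 0.04762 for *des* (0.37) in Fsh+Tri against T0. With stage as a covariate, *des* had -0.67 for Fsh+Tri minus Tri (adjusted p = 0.0553) and -0.50 for Fsh+Tri minus Ctrl (adjusted p = 0.173), and Fsh+Tri minus Tri of *fblim1* was -0.014.

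Leaving out each array in turn gave, for Fsh+Tri minus Tri, -0.11 to 0.027 for *smtn*, -0.14 to 0.015 for *dmd*, -0.78 to -0.65 for *des* and -0.079 to 0.075 for *fblim1*. For Tri minus Ctrl it gave -0.032 to 0.15 for *smtn*, -0.15 to 0.0202 for *dmd* and -0.0069 to 0.23 for *des*, and for Fsh+Tri minus Ctrl -0.062 to 0.094 for *smtn* and -0.72 to -0.48 for *des*. The difference of the responses ranged over -1.13 to -0.92 for *dmd* and -0.11 to 0.13 for *des*. Against T0 the ranges were -0.775 to -0.44 for *smtn* in Fsh, -0.057 to 0.14 for *dmd* in Fsh+Tri, 0.48 to 1.28 for *fblim1* in Tri and 0.50 to 1.30 for *fblim1* in Fsh+Tri. For stage they were -0.036 to 0.11 for *smtn* and -0.12 to 0.0024 for *dmd*.

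Arrays with the same replicate number did not deviate together: over 36 pairs the median correlation was -0.06, 4 pairs were over 0.1, and 1 of 24 arrays was closest to its own number. With the replicate number as a block, *smtn* had -0.54 for Fsh minus T0 (adjusted p = 0.0642), the difference of the responses of *dmd* was -1.03 (adjusted p = 0.0497), and stage III minus stage I-II turned to -0.046 for *smtn* and 0.032 for *dmd*. The block moved the count of calls to 86, against 100 clones without it, for Fsh minus Ctrl, and to 10, against 16, for Fsh+Tri minus Tri, and it changed no other call of the 4 genes. Precision was limited by 6 arrays a group from 1 pool and by 3 arrays at T0.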
